A study of Mus musculus with 27 samples.

Results

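The Iroquois (Irx) and Spalt-like (Sall) families are 2 groups of developmental transcription factors, and all 10 mouse members, Irx1 to Irx6 and Sall1 to Sall4, were followed here through the differentiation of mouse embryonic stem cells. The members were chosen by gene name, with the deposited fold changes of the knockout clones against WT known, so knockout differences are given below as a description with no test. All 10 were found among the 25209 genes of the series.

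RNA of mouse embryonic stem cells (line V6.5) and their derivatives was sequenced in 27 libraries of 3 genotypes. WT cells were compared with KO4 and KO8, each of which is 1 clone (#4 and #8) whose Zfp512b gene carries a triple transcriptional terminator after exon 3, with an mCherry or puromycin resistance cassette upstream of it. The clones were picked among several for their small increase in proliferation, and no editing or selection is described for the WT cells. Naive cells (Day 0, 2iLIF medium) had 3 libraries per genotype. Primed cells (Day 2, serum with LIF), neural progenitor (NPC) cultures and cardiomyocyte (CM) cultures had 2 each. NPC cultures (Day 10) were embryoid bodies kept in suspension with 5 µM retinoic acid. CM cultures (Day 7.5) were embryoid bodies grown with vitamin C and plated on gelatine. The libraries of a group are labelled as replicates with no statement of separate cultures, so p-values measure only the spread between these libraries. The study asked whether loss of Zfp512b changes stem cells and their differentiation.

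Irx proteins are homeobox factors of the TALE class. Their genes lie in 2 clusters of 3, Irx1, Irx2 and Irx4 on mouse chromosome 13 and Irx3, Irx5 and Irx6 on chromosome 8, and they pattern the neural tube, heart and limb; Irx4 is best known as a regulator of ventricular identity. On mm9, GENCODE places Irx1 at chr13:72095680-72101171, Irx2 at chr13:72766245-72771644 and Irx4 at chr13:73397945-73407068 on chromosome 13, and Irx3 at chr8:94322428-94325553, Irx5 at chr8:94881695-94885351 and Irx6 at chr8:95198188-95204855 on chromosome 8. Of the Sall genes, which lie apart, it places Sall1 at chr8:91551147-91568061, Sall2 at chr14:52930847-52948437 and Sall4 at chr2:168573832-168593443. Sall proteins are zinc finger factors. Sall4 and Sall1 are abundant in stem cells, and Sall proteins recruit the NuRD corepressor through a short motif at their N-terminus, which Zfp512b carries in a variant, internal form.

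The coding bases of that motif are shown because they are a feature that Sall1, Sall2 and Sall4 share with the targeted gene. Sall3 was not searched for it. They were read 5′ to 3′ on the coding strand from GENCODE transcripts on mm9, and capitals mark the 9 of 21 bases that are identical in all of the sequences. The stretches were found by a search for the amino acids of the motif, so most of these identical bases follow from the search.
Sall1 (chr8:91566300-91566320, minus strand): cGgaGgAAgCAagcgAagCCt
Sall2 (chr14:52947824-52947844, minus strand): cGgcGaAAgCAacggAgaCCc
Sall4 (chr2:168592503-168592523, minus strand): aGgcGcAAgCAggcgAagCCc
Zfp512b (chr2:181323663-181323784, minus strand, split by an intron): aGaaGgAAaCAgaaaAcaCCg
The stretch starts at codon 3 in Sall1, Sall2 and Sall4 and at codon 429 of 900 in Zfp512b.

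RefSeq promoters (GRCm38.p6, 250 bases before to 50 after the start) were matched for 5 of the 10 members. Those of Irx2, Irx4 and Irx3 are shown because Irx2 and Irx4, neighbours on chromosome 13, had unlike levels in naive and NPC cells and Irx3 stands for the chromosome 8 cluster. CG dinucleotides are in capitals.
Irx2 (chr13:72628570-72628869, plus strand): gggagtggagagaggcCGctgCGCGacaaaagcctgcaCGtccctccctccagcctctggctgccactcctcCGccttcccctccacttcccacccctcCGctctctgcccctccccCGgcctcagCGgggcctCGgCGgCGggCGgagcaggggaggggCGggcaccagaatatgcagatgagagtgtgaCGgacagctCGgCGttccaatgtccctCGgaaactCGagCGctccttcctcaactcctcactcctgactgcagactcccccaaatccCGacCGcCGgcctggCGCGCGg
Irx4 (chr13:73260247-73260546, plus strand): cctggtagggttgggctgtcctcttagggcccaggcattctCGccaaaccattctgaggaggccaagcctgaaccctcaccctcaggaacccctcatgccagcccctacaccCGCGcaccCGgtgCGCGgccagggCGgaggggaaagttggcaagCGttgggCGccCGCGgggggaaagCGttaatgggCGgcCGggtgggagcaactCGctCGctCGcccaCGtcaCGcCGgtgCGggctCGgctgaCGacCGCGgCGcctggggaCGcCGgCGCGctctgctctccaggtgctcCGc
Irx3 (chr8:91801605-91801904, minus strand): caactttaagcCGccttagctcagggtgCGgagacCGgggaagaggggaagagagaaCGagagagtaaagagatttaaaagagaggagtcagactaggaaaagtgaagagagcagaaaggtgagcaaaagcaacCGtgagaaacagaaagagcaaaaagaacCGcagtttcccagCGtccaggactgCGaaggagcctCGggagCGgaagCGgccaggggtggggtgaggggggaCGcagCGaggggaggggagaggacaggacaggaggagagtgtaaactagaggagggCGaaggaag
The Irx4 window holds 31 CG dinucleotides, the Irx2 window 25 and the Irx3 window 14, where the median over 32851 promoters of the same length is 7 and 26.5% hold 20 or more. None of the 3 windows holds TATAAA on either strand, which 13.6% of all promoters do. The Sall windows that were matched differ: those of Sall1 hold 18 to 39 CG dinucleotides and no TATAAA. Those of Sall2 hold 1 and 10, and the window with 1 holds TATAAA.

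The deposited base mean, the mean normalized read count over the libraries of 1 clone and WT, gives each gene's level at a stage (the plot of base means by stage). The tables of each stage were normalized separately, so levels are set across stages with that limit. Naive levels of Sall1 and Sall4 were high and those of most Irx genes low. Naive Sall1 had a base mean of 12396.8 in the table of KO4 and WT and 11901.7 in that of KO8 and WT, and Sall4 had 11781.5 and 11920.7. Both were lowest in NPC cultures, at 659.9 and 859.5 for Sall1 and 557.4 and 741.0 for Sall4. In CM cultures they stood in between, at 3488.4 and 4047.9 for Sall1 and 3234.7 and 3060.0 for Sall4. Sall2 went the other way, from 620.9 and 554.2 in naive cells to 3039.3 and 3179.0 in NPC cultures. Sall3 was highest in naive cells, at 1502.9 and 1367.4.

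Irx2 was the exception among the Irx genes, with naive base means of 414.8 and 358.5 that were lower in primed cells, at 35.3 and 44.7. In naive cells the other 5 Irx genes had base means of at most 10.99. Irx1 stood at 413.1 and 402.1 in NPC cultures and at 227.1 and 297.4 in CM cultures. Irx6, the third gene of the chromosome 8 cluster, stayed under 8 in every table. Per kilobase of exon and after rescaling by the median ratio over 11825 genes, naive levels were 1384.3 for Sall1 and 1281.0 for Sall4, and 70.0 for Irx2. Rescaling moved the highest stage of Sall1 and Sall4 from naive to primed cells and left that of the other 8 members as deposited.

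**Figure D1:**
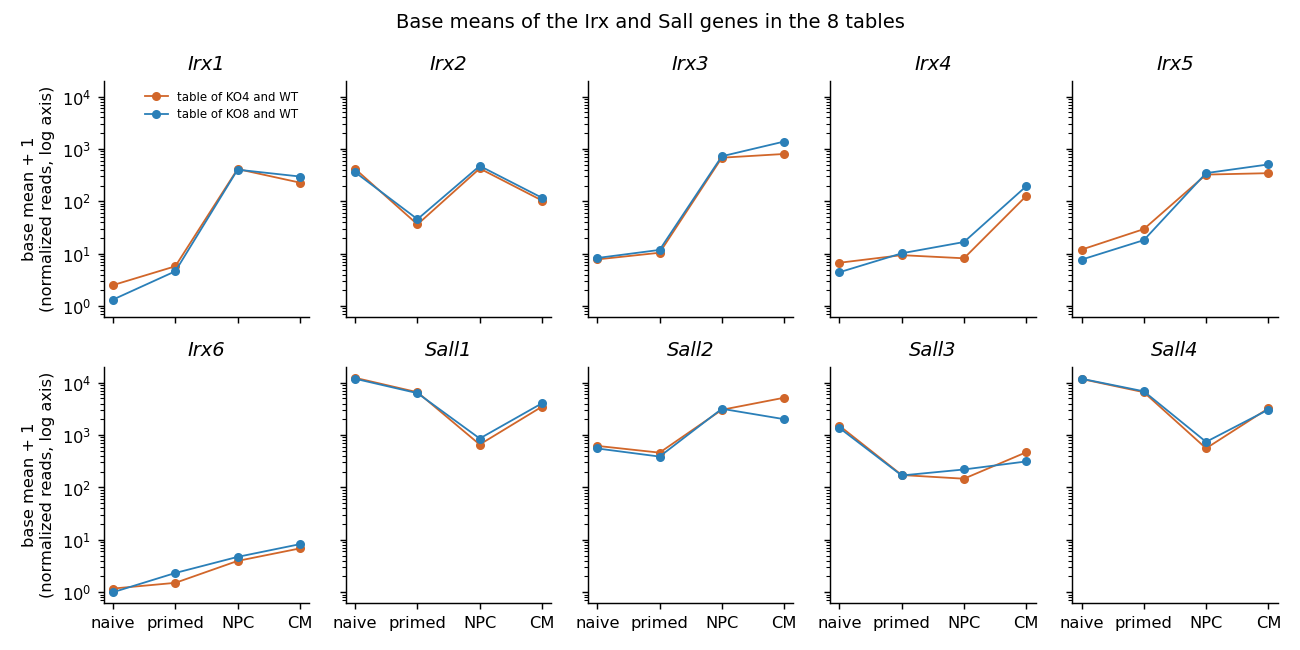
Base mean plus 1 (normalized reads, log axis) of each Irx and Sall gene at the naive, primed, NPC and CM stage, with 1 line for the table of KO4 and WT and 1 for that of KO8 and WT. The values are the authors' means over all libraries of a table and have no error bar, and those of Irx1, Irx3 and Irx5 are at most 10.99 in naive cells and at least 227.1 in NPC and CM cultures.

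Whole reads per library were recovered from these base means wherever 1 set of whole numbers gave the values of both tables of a stage. Recovered values are on each stage's own scale, with size factors divided out where "normalized" is written. WT libraries are those whose reads enter both tables of a stage, and libraries are named a, b and c with no replicate number. Libraries held about 34.3 to 39.6 M reads in naive cells and 15.1 to 19.4 M elsewhere. In NPC cultures the 2 KO8 libraries differed by more than 1.5-fold for 18.5% of genes, where the other groups of the 3 later stages had 2.07% to 8.19%. Zfp512b had 977 and 979 reads in WT primed cells, 188 and 213 in KO4 and 183 and 135 in KO8, and its normalized mean was 0.215 of WT in KO4 and 0.178 in KO8. At the other stages its reads were not recovered, since 3 sets gave the CM base means (0.18, 0.79 or 7.7 of WT in KO4) and the naive and NPC base means were over the limit. Genes on chromosome 8 stood higher in both clones at every stage, with a median ratio 1.37 to 1.54 times that of genes on other chromosomes, which bears on Irx3, Irx5, Irx6 and Sall1.

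Markers of the labelled cell types were present at their stages, though not at those stages alone. The 6 naive markers had base means of 7063.3 to 45663.8 in the naive table of KO4. In the primed table of KO4 the 4 primed markers ranged from 35.2 to 19254.6. In the CM table of KO4 all 6 cardiomyocyte markers were at 610.5 or more, and in the NPC table all 6 neural markers were at 114.8 or more. The neural markers summed to 6361.5 in the NPC table of KO4, under their CM sum of 9710.1, and to 7371.0 in the NPC table of KO8, over their CM sum of 3821.1. The CM tables differed between the clones: the summed base mean of cardiomyocyte markers was 21029.8 with KO4 and 32346.4 with KO8, that of 4 endothelial and blood markers 8100.4 and 14025.2, and that of neural markers 9710.1 and 3821.1. Both tables hold the same WT libraries, so these differences lie between the clones. Fewer cells of a type and less RNA per cell cannot be told apart in bulk libraries.

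Stages were then compared in WT cells, since stage differences were not used to choose the members. The clone contrasts known at that choice use the same WT libraries, so the p-values below are not independent of the choice. In these libraries Irx1 and Irx5 had few reads in naive cells and many in both differentiated cultures, and Irx4 was high in CM cultures alone among the stages (the plot of WT libraries). Naive WT libraries held 0, 2 and 0 reads of Irx1, 8, 0 and 0 of Irx4 and 11, 6 and 4 of Irx5. The WT NPC libraries held 132 and 102 reads of Irx1, 10 and 10 of Irx4 and 145 and 137 of Irx5. The WT CM libraries held 318 and 388 reads of Irx1, 256 and 256 of Irx4 and 614 and 698 of Irx5. For all 3 genes the naive and CM libraries did not overlap.

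Naive reads were recovered only up to a base mean of 40, so Irx1, Irx4 and Irx5 passed the floor of 10 normalized reads through the stages where they are high, and their differences from naive cells are a description with no test. On the log2(normalized reads + 1) scale, CM cultures exceeded naive cells by 8.22 for Irx1, 7.33 for Irx4 and 7.22 for Irx5. With median ratio scaling over recovered genes, the scaling that was planned, these differences were 6.31, 5.32 and 4.21. NPC cultures exceeded naive cells by 6.65 for Irx1, 2.80 for Irx4 and 5.04 for Irx5, and by 4.58, 0.84 and 1.86 with the planned scaling. Primed cells exceeded naive cells by 2.33 for Irx1, 3.07 for Irx4 and 2.36 for Irx5, and by 2.42, 3.09 and 1.41 with the planned scaling. The sizes therefore depend on the scaling, and the sign did not change for these 3 genes under either. Without naive WT library a, which holds all naive reads of Irx4, the CM difference of that gene was 8.14. Of all genes compared with naive cells, limma called 81.5% in CM cultures, 83.8% in NPC cultures and 44.4% in primed cells.

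Between the differentiated WT cultures, where limma was used as a test, Irx4 was 23.2-fold higher in CM than in NPC cultures (log2 difference of NPC minus CM -4.53 ± 0.72 SE, adjusted p = 0.000464, limma, 2 libraries each). Irx5 was 4.54-fold higher in CM (-2.18 ± 0.43, adjusted p = 0.00156) and Sall3, a Sall gene on chromosome 18, 9.82-fold higher (-3.30 ± 0.17, adjusted p = 1.64e-06). Irx1 was 2.96-fold higher in CM (-1.57 ± 0.51, adjusted p = 0.0243), a call that was lost without any one of the 4 libraries (adjusted p = 0.0636 to 0.117). Irx2, the neighbour of Irx1 and Irx4, differed by 0.19 ± 0.36 with an adjusted p = 0.683. In this comparison 50.9% of genes were called.

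Against primed cells, Irx5 was 6.39-fold higher in NPC cultures (adjusted p = 0.000153, limma) and Irx2 5.07-fold (adjusted p = 0.000236). Sall3 was 6.17-fold lower (adjusted p = 1.21e-06) and Irx4 differed by -0.27 ± 0.72 (adjusted p = 0.74). Here 75.6% of genes were called. The Irx2 difference rested on uneven primed libraries, with a log2 difference of 2.34 that was 2.96 without primed WT library a and 1.72 without library b. In CM cultures Irx1 was 59.1-fold higher than in primed cells, given as a description with no test. Its mean over primed WT libraries was 5.874 normalized reads, under the floor, which it passed through the stages where it is high. Irx5 was 29.0-fold higher in CM than in primed cells, Irx4 19.2-fold, Irx2 4.44-fold and Sall3 1.59-fold. Their adjusted p was 2e-06, 0.000251, 0.000402 and 0.00544 in that order (limma). There 71.8% of genes were called, and the Irx2 log2 difference of 2.15 was 2.77 and 1.53 without the same libraries. Per kilobase of exon, mean WT levels in CM cultures were 301.2 for Irx5, 188.7 for Irx1, 108.2 for Irx4, 58.4 for Sall3 and 53.9 for Irx2.

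**Figure D2:**
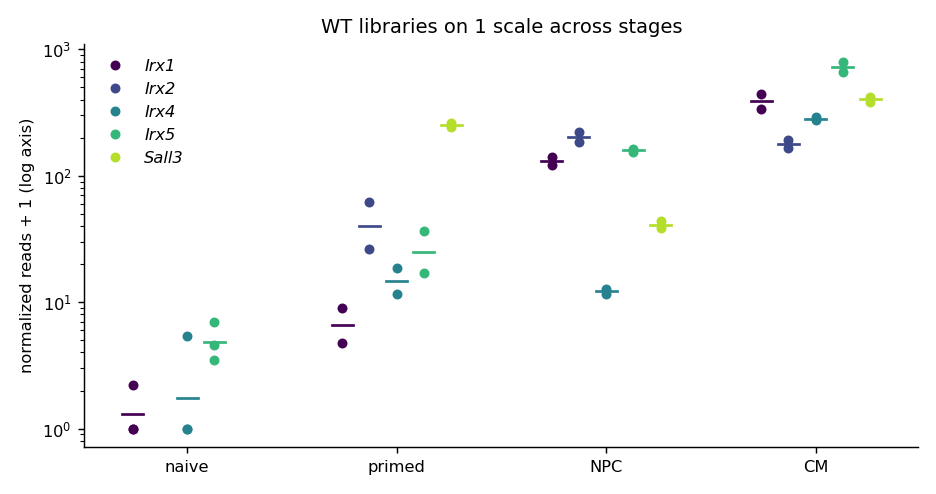
Normalized reads plus 1 (log axis) of Irx1, Irx2, Irx4, Irx5 and Sall3 in each WT library (points) and their mean on the log scale (bars), with the 4 stages on 1 scale. Irx4 lies at 10.65 and 11.74 in NPC libraries and at 273.4 and 289.5 in CM libraries, and Irx2 and Sall3 have no naive points since their naive reads could not be recovered.

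In NPC cultures of both clones Irx1, Irx2 and Irx5 stood several-fold above WT (the plot of NPC libraries). Irx1 had 132 and 102 reads in WT, 736 and 681 in KO4 and 652 and 760 in KO8. All clone libraries lay above both WT libraries, and the normalized mean went from 117.9 ± 13.3 (SD, n = 2) in WT to 724.1 ± 0.18 in KO4 and 671.0 ± 103.1 in KO8, 6.14 and 5.69 times WT. Irx2 had 208 and 158 reads in WT, 679 and 649 in KO4 and 622 and 943 in KO8, 3.68 and 4.05 times WT with no overlap.

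From the chromosome 8 cluster, Irx5 had 145 and 137 reads in WT, 452 and 554 in KO4 and 473 and 650 in KO8. That is 3.62 and 3.75 times WT with no overlap, and the log2 ratios of 1.86 and 1.91 came to 1.34 and 1.37 relative to the median of chromosome 8. For Irx3 the NPC base means allowed 2 sets of reads. In the first, WT held 348 and 392 reads, KO4 938 and 1036 and KO8 760 and 1428, which is 2.69 and 2.78 times WT. In the second the libraries of each group differed by more than 2-fold, the groups overlapped, and the ratios were 1.28 and 1.33. Irx3 was thus higher than WT on average in both clones in either set. Genes on chromosome 8 had a median log2 ratio of 0.51 in KO4 and 0.54 in KO8 at this stage. The Irx3 ratios of the first set lay above that median in both clones and those of the second set below it. Whether Irx3 rose beyond its chromosome is therefore not known. Irx4 stayed low, with 10 and 10 reads in WT, 7 and 2 in KO4 and 10 and 33 in KO8. Its KO8 mean was 2.05 times WT with overlap, and without KO8 library b the log2 ratio turned from 1.03 to -0.14. Irx6 had 2 to 6 reads in every library.

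Among the Sall genes, Sall3 had 40 and 32 reads in WT NPC cultures, 268 and 243 in KO4 and 227 and 593 in KO8. Its clone libraries all lay above WT, at 7.19 and 10.9 times. The KO8 libraries were far apart, and without library b the log2 ratio of KO8 was 2.52 instead of 3.44. Both values stand above WT. Sall1 also allowed 2 sets, with clone means of 3.38 and 4.49 times WT in the set with 308 and 298 WT reads, 1010 and 1018 in KO4 and 1024 and 1859 in KO8. The other set gave 2.82 and 3.78 times WT, and 1 KO4 library overlapped with WT there. Sall1 also lies on chromosome 8, and its mean ratios lay above the median of that chromosome in either set. Sall4 had 615 and 639 reads in WT, 521 and 458 in KO4 and 693 and 1021 in KO8. KO4 lay below WT at 0.785 of its mean, and KO8, at 1.28, overlapped with it. For Sall2 the table means differed by little, and the KO8 mean exceeded the KO4 mean by 42.5 normalized reads where WT and KO4 summed to 6195.5.

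Counted over members with a mean of at least 10 normalized reads and only 1 set of reads, 4 of 5 lay above WT and 1 below in KO4 NPC cultures, where 26.5% of all genes lay above and 28.3% below. In KO8, 4 of 6 lay above and none below, where 27.7% and 26.2% of all genes did. With the means also at least 2-fold apart, 5.53% of all genes lay above WT in KO4 and 9.14% in KO8. In this and later counts, all genes are those recovered under the same limits as the members, so strongly read genes are left out. The members were chosen with these contrasts known, so nothing is read from the counts, and Irx4 entered the KO8 count through its KO8 libraries.

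**Figure D3:**
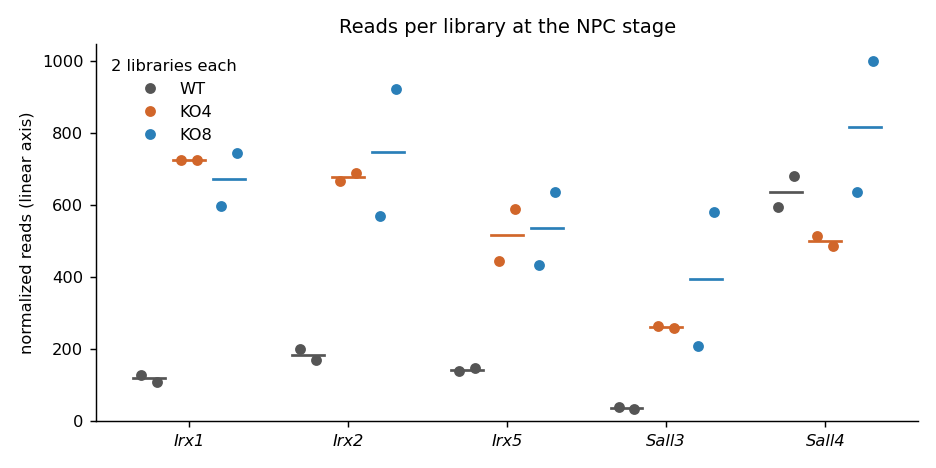
Normalized reads (linear axis from 0) of Irx1, Irx2, Irx5, Sall3 and Sall4 in the 2 WT, 2 KO4 and 2 KO8 libraries of the NPC stage (points), with group means as bars. Points of both clones lie above the WT points for Irx1, Irx2, Irx5 and Sall3, and 1 KO8 library of Sall3 at 580.5 stands far from the other at 208.3.

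In CM cultures Irx1, Irx2, Irx4 and Irx5 stood below WT, with KO4 lower than KO8 (the plot of CM libraries). Irx4, the ventricular factor, had 256 and 256 reads in WT, 4 and 7 in KO4 and 126 and 139 in KO8. No clone library reached WT, and the normalized mean of 249.0 ± 10.1 (SD, n = 2) in WT was 42.8 times that of KO4, 5.82 ± 2.34, and 1.88 times that of KO8, 132.2 ± 17.3. Irx5 had 614 and 698 reads in WT, 40 and 73 in KO4 and 334 and 385 in KO8, with WT at 10.7 and 1.78 times the clones and no overlap. Relative to chromosome 8 its log2 ratios were -3.88 in KO4 and -1.35 in KO8.

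Irx1 had 318 and 388 reads in WT, 116 and 105 in KO4 and 228 and 257 in KO8, which is 0.338 and 0.703 of WT. Irx2 had 179 and 146 in WT, 48 and 49 in KO4 and 80 and 64 in KO8, 0.324 and 0.453 of WT. Neither gene's clone libraries overlapped with WT. The weak Irx6 had 6 and 16 reads in WT, 2 and 0 in KO4 and 4 and 3 in KO8. For Irx3 as many as 48 sets of reads gave the CM base means, so no ratio to WT is given. The difference between the clones does not depend on the set: KO8 exceeded KO4 by 1104.5 normalized reads on average, and WT was at most 1628.4.

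The Sall genes of CM cultures split by clone. Sall3 had 396 and 337 reads in WT, 566 and 565 in KO4 and 276 and 250 in KO8. KO4 lay above WT at 1.68 times its mean and KO8 below at 0.735, with no overlap in either. Sall2 reads were too many to recover, but KO4 exceeded KO8 by 6517.0 normalized reads on average and WT was at most 3968.8, so KO4 stood above WT. Sall1 was higher in KO8 than in KO4 by 903.7 normalized reads, and Sall4 higher in KO4 than in KO8 by 529.2, where WT and KO4 summed to 7077.2 and 6562.4. KO4 cultures also had the lower sums of cardiomyocyte and endothelial markers and the higher sum of neural markers given above, and the part of these differences in the Irx and Sall values was not tested.

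Over members with at least 10 normalized reads and only 1 set, 4 of 5 lay below WT and 1 above in KO4 CM cultures, where 41.3% of all genes lay below and 36.3% above. In KO8 all 5 counted lay below and none above, where 32% of all genes lay below and 30.6% above. With a difference of at least 2-fold, 19.9% of all genes lay below WT in KO4 and 8.07% in KO8. As for NPC cultures, nothing is read from these counts, and Irx4 entered the KO4 count through its WT libraries. By their own values, Irx1, Irx2 and Irx5 lay above WT in NPC cultures and below it in CM cultures of both clones.

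**Figure D4:**
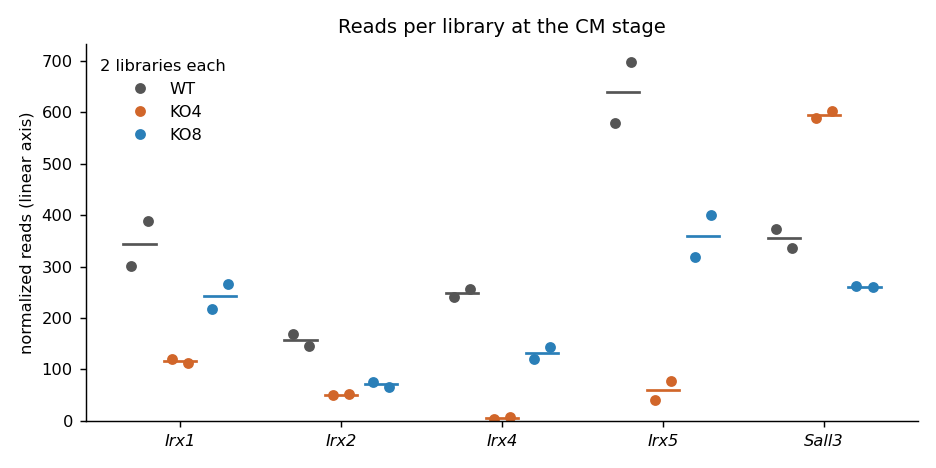
Normalized reads (linear axis from 0) of Irx1, Irx2, Irx4, Irx5 and Sall3 in the 2 WT, 2 KO4 and 2 KO8 libraries of the CM stage (points), with group means as bars. The Irx genes step down from WT to KO8 to KO4, with KO4 libraries of Irx4 at 4.16 and 7.47, while KO4 is highest for Sall3.

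Before differentiation 8 members were recovered in primed cells and 5 in naive cells. In primed cells Irx5 had 28 and 12 reads in WT, 38 and 36 in KO4 and 18 and 12 in KO8, so that KO4 lay above WT at 1.96 times and KO8 overlapped with it. Relative to the median of chromosome 8, the log2 ratios of 0.97 in KO4 and -0.28 in KO8 came to 0.57 and -0.71. Without WT library a the log2 ratio was 1.66 instead of 0.97 in KO4 and 0.41 instead of -0.28 in KO8, and without WT library b that of KO4 was 0.51. Sall2 had 399 and 386 reads in WT, 512 and 545 in KO4 and 439 and 335 in KO8, 1.41 times WT in KO4 with no overlap. Sall3 had 192 and 197 in WT, 122 and 179 in KO4 and 146 and 144 in KO8, at 0.812 and 0.822 of WT, with no overlap in KO8 alone. Irx2 libraries of all 3 groups overlapped, with 19 to 79 reads and 1.19 and 1.83 times WT in the clones. Of members counted, 2 of 4 lay above and none below WT in KO4, where 25.9% of all genes lay above and 31.4% below, and in KO8 none of 5 lay above and 1 below, where 24.1% and 29.2% did.

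In naive cells Irx3 had 6, 6 and 3 reads in WT, 10, 9 and 7 in KO4 and 9, 14 and 6 in KO8, and Irx5 had 11, 6 and 4, then 8, 23 and 14, then 6, 10 and 4. Normalized Irx3 libraries of both clones lay above WT, at means of 8.74 and 9.71 against 4.87, under the floor of 10 normalized reads. The Irx5 libraries overlapped, with KO4 at 2.27 times WT, as did those of Irx1 and Irx4, and 1 read of Irx6 was found in KO4. Relative to the median of chromosome 8, the Irx5 log2 ratio of 1.18 in KO4 came to 0.70. For the strongly read Sall1 and Sall4, the naive table sums of WT and clone differed between KO4 and KO8 by 4.23% and 1.02%, and for Irx2 by 14.7%. How these members compared with WT in naive cells is not known from such sums.

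Genes of the same pathways were counted by the same measure. Of 15 neural tube patterning genes, 7 could be compared in NPC cultures, and 5 lay above WT in both clones, with a median log2 ratio of 1.25 in KO4 and 1.20 in KO8, beside -0.02 and 0.01 over all genes. Of all genes compared at that stage, 16.2% lay above WT in both clones. The 5, named after their values were seen, were Pax3 and Pax7 (dorsal progenitors), Pax6, Dbx1 (intermediate progenitors) and Nkx6-1 (ventral progenitors). Shh, the ventral signal, lay below WT at -0.39 and -2.18. By base mean the leading members were Ptch1, the Shh receptor, at 4819.3 and 4183.2, and the effectors Gli3, Gli1 and Gli2, which were not recovered. Neural markers also stood higher in the NPC cultures of the clones, with 4 of 4 compared above WT in KO4 and 3 of 4 in KO8, where 26.5% and 27.7% of all genes did, and their part in the Irx and Sall values was not tested.

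Only 2 of 12 genes of the TALE class, to which Irx belongs, could be compared in NPC cultures. These were named after their values were seen: Pbx4 lay above WT at 0.75 and 0.96 on the log2 scale and Mkx below at -0.84 and -0.62. The abundant cofactors Meis2, Pbx2 and Meis1 were not recovered, and Meis2 had base means of 6088.1 and 6380.8. Of 15 cardiac chamber genes, 4 could be compared in CM cultures. All 4, Tbx5, Hey2, Myl2 and Nppa (named after their values were seen), lay below WT in KO4, where 41.3% of all genes did. The median log2 ratio was -4.23 beside -0.03 over all genes. Tbx5, Myl2 and Nppa entered that count through their WT libraries, so nothing is read from it or from the median. In KO8 Tbx5 lay above WT at 0.72, Myl2 and Nppa lay below at -2.46 and -0.57, Hey2 overlapped and the median was -0.26. Myh7, Myh6, Myl7 and Gata4 had lower base means with KO4 than with KO8, at 9692.6 and 14101.1 for Myh7, the slow myosin heavy chain.

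The 10 stem cell factors listed with Sall4 had naive base means of 2560.6 to 45663.8 in the table of KO4 and the 13 NuRD subunits 449.9 to 24237.4, all above the recovery limit. In CM cultures 6 of the stem cell factors could be compared. In KO4, 4 of 6 lay above WT, where 36.3% of all genes did, and in KO8, 5 of 6 lay below, where 32% did, with median log2 ratios of 1.43 and -1.71 beside -0.03 and -0.01 over all genes. Examples, named after their values were seen, are Nanog at 1.58 and -1.47 and Zfp42 at 1.84 and -2.18. Prdm14, also named after its values were seen, entered the KO8 count through its WT libraries. The part of the stem cell factors in the Sall values of CM cultures, which also split by clone, was not tested. Of 12 neighbours of Irx3, Irx5, Irx6 and Sall1, 7 could be compared in primed cells. There 5 lay above WT in KO4 and 4 in KO8 and none below, where 25.9% and 24.1% of all genes lay above. The neighbours had median log2 ratios of 0.35 and 0.45, beside 0.40 and 0.44 over the genes of chromosome 8. In NPC cultures 3 of the neighbours could be compared, of which 2 lay above WT in both clones, as 16.2% of all genes did.

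The genes with base mean patterns most like those of a member were sought among 14937 genes over the 8 tables, by root mean square distance of centred log2 values. Sall1 lay closest to Pstpip2 and to Sall4, both at 0.15, and Sall4 to Klk13 at 0.10 and Frrs1 at 0.14. Irx3 lay closest to Flt1 and Timp2, both at 0.19, and Irx5 to Sox7 at 0.23 and Adamts3 at 0.25. Irx1 lay closest to Dll4 and Fzd1 at 0.31 and 0.32, Irx2 to Gnal and Fbxl8 at 0.32 and 0.33, and Irx4 to Mmp9 and Tgfa at 0.39 and 0.42. Among the genes named for Sall2 was Fam124a at 0.21, and Sall3 lay closest to Plekhb2 and Prep at 0.25 and 0.27. The tables of a stage share WT libraries, so these 8 values are not independent.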

How the data were processed

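RNA-seq reads were trimmed with Trim Galore 0.6.7, aligned to mm9 with HISAT2 2.2, counted with featureCounts and compared with DESeq2 1.46.0, per the submitters' processing notes. The authors deposited 8 tables, 1 per clone and stage. The base mean in them is a signal the authors computed as the mean of normalized counts over the libraries of 1 clone and WT. The other 5 columns hold the authors' own fold change, standard error, Wald statistic, p-value and adjusted p-value and were not used.

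A base mean is a sum of whole reads, each times 1/(number of libraries × size factor). Size factors were read from genes with 1 read and refined by least squares, and all sets of whole reads giving both tables of a stage were searched (base means up to 40 in naive cells and 900 elsewhere). WT libraries were identified as those whose single-read genes stand in both tables of a stage. A gene was used if only 1 set was found: 99.3% of searched genes in naive cells, 95.7% in primed cells, 90.0% in NPC and 94.7% in CM cultures, with 0 genes without a set. Among genes whose base mean reached 10, 12.7%, 62.7%, 54.0% and 57.2% were recovered in that order. On simulated NPC tables, 906 of 1000 genes had only 1 set, and all 906 were right. Recovered reads were computed here from the deposited means, and no count model was fitted to them.

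WT stages were compared with limma 3.58.1 in R 4.3.3 on log2(normalized reads + 1) with an intensity trend, for genes with a mean of at least 10, and adjusted by Benjamini-Hochberg over all genes tested. In simulated NPC and CM libraries (7365 genes), 69 of 100 genes changed 2-fold and 99 of 100 changed 4-fold were called. So were 17 genes that had not been changed. The simulation used a fixed dispersion and the same mean at all stages for genes not changed, unlike the real libraries. Stages were put on 1 scale by the median ratio of base means, in place of the recovered genes that were planned, since recovered genes are low in naive cells; the comparisons with primed cells and the 2-fold background were added after values were seen. Clones were compared with WT by overlap of libraries, with no test. The named genes are the members, Zfp512b, the 2 nearest genes per member and up to 4 leading genes per list; others are marked, and 2 genes that the rule names are not reported here. The members and lists were chosen with earlier results of these data known. Alternatives were pseudocounts, filters, scalings, voom weights and leaving out each library. Gene positions follow GENCODE on mm9 and promoters RefSeq. Python 3.11.15 was used with numpy 2.4.6, pandas 2.3.3, numba 0.67.0, matplotlib 3.10.9 and Biopython 1.88.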

Additional observations from a re-analysis of the deposited data

Results flagged for a closer look

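Some members lay on opposite sides of WT in NPC and CM cultures in every library. Irx1 was at 6.14 (KO4) and 5.69 (KO8) times WT in NPC cultures and at 0.338 and 0.703 in CM cultures. Irx2 was at 3.68 and 4.05 times WT in NPC cultures and at 0.324 and 0.453 in CM cultures. Irx5 was at 3.62 and 3.75 times WT in NPC cultures and at 0.0935 and 0.562 in CM cultures. Sall3 in KO8 was at 10.9 times WT in NPC and 0.735 in CM cultures. Within CM cultures, Sall3 was at 1.68 times WT in KO4 and at 0.735 in KO8, with all libraries of the clones on opposite sides of WT. None of these differences between stages or clones was tested, since the members were chosen with the contrasts known.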

How the results depend on the processing

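No paired analysis was possible because the recovered libraries carry no replicate numbers. Leaving out each library in turn, the number of members above WT ranged, in KO4, from 2 to 3 in primed, 4 to 4 in NPC and 1 to 1 in CM cultures, and in KO8 from 0 to 3, 4 to 6 and 0 to 0; the number below ranged in KO4 from 0 to 1, 1 to 1 and 4 to 4, and in KO8 from 1 to 2, 0 to 1 and 5 to 5. With median ratio scaling over recovered genes, 1 member instead of 0 lay above WT in KO8 primed cells. Without primed WT library a, the Irx4 difference between NPC and primed cells was 0.07 instead of -0.27 (adjusted p = 0.951, limma), and over the libraries left out it ranged from -0.62 to 0.07. The Irx1 difference between NPC and CM cultures lost its call with a pseudocount of 0.5 (adjusted p = 0.0709) and with no filter on low counts (0.0907). Differences from naive cells carry no test, and median ratio scaling over recovered genes lowered those of NPC cultures to 1.86 for Irx5 and 0.84 for Irx4 on the log2 scale. The cause of these changes was not tested. Under the other alternatives, and apart from Irx1 in NPC against CM cultures without any one library, the direction and call of each member tested between primed, NPC and CM cells were as reported. Depth limits the recovered naive Irx values, which rest on at most 23 reads a library.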
